A study of Mus musculus with 2 samples.

Results

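Translation initiation and elongation factor genes were examined in alveolar macrophages, which live in the air spaces of the lung and clear particles and surfactant. The members are all genes whose symbol begins with Eif or Eef and a digit, read from array features that carry a single gene symbol. Eif2s3x, Eif2s3y and pseudogenes were left out. Eif1, Eif2s1, Eif3g and Eif4g1 had no single-symbol feature and are not among the members. The rule found 67 features for 62 genes, out of 22180 genes with such a feature, and each gene was read from its feature with the highest mean signal. Of the 62 genes, 61 are annotated as protein-coding. The remaining one, Eif2c5, is annotated as a lncRNA and carries an old Argonaute-type name, so it is no translation factor.

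Macrophages were flow-sorted from lung tissue of 8 to 10 week old mice and put directly into Trizol. The series holds 2 Affymetrix arrays, 1 from mice labelled Lysm-Cre Ssu72fl/fl and 1 from mice labelled Lysm-Cre, which serve as the control. All of these mice carry Cre expressed from the lysozyme 2 locus, which is active in myeloid cells, and only those labelled Ssu72fl/fl carry the floxed Ssu72 allele. Whether RNA of several mice was pooled for an array is not stated in the labels. A single array per genotype leaves no replicate, so no p-value and no error between animals can be given, and precision is limited by the number of arrays.

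Translation initiation brings the small ribosomal subunit, the initiator tRNA and the mRNA together at the start codon. eIF2 carries the initiator tRNA, eIF2B reloads eIF2 with GTP, eIF3 is a large scaffold on the small subunit, and the eIF4 factors bind the mRNA cap and unwind the leader. During elongation, eEF1A delivers aminoacyl-tRNAs, the eEF1B complex recharges eEF1A with GTP, and eEF2 moves the ribosome along the mRNA. Kinases that phosphorylate eIF2 alpha, eIF4E-binding proteins and the kinase of eEF2 adjust the rate of protein synthesis to stress and nutrients. Ssu72 itself removes phosphates from the tail of the largest subunit of RNA polymerase II.

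Values are the log2 expression values of the deposited table, and each difference is the Ssu72fl/fl value minus the Lysm-Cre value. A floor was set at 4.65, the 50th percentile of the pooled values of both arrays. Values under the floor were set to it, and a gene was compared where at least 1 array was above it. A difference with 1 array under the floor is therefore a lower bound. The one error estimate available for a gene is the spread, a robust SD taken over differences of genes in the same range of signal. It describes scatter between genes and not between animals. Differences also drifted with signal level: over all compared genes the median difference was 0.0080 at levels up to 5, -0.031 from 5 to 6, -0.19 from 6 to 7 and -0.42 above 7, where Eef1a1, Eef2 and Eif4a1 lie. A smooth curve of this drift, fitted on all features, was therefore subtracted, and the remainder is given beside the deposited value as the level-adjusted difference. Signals of different features depend on their probes and are not compared between genes as amounts of RNA.

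Ssu72 read 4.998 on the Ssu72fl/fl array and 4.862 on the Lysm-Cre array, a difference of 0.136 against a spread of 0.142. Its level-adjusted difference of 0.147 was just above the spread, where 17.7% of all compared genes also lay above theirs. The targeted gene thus did not read lower on the Ssu72fl/fl array. This goes against the label if its probes read the deleted part. The sources do not say whether they do, and the directions below rest on the labels alone. All 14 alveolar macrophage markers that could be named were above the floor on both arrays, among them Chil3, Lyz2, Marco, Siglecf and Pparg, and 13 were lower on the Ssu72fl/fl array (median -0.33, level-adjusted -0.036). Of 11 interstitial macrophage and monocyte markers, 10 were lower on the Ssu72fl/fl array (median -0.36, level-adjusted -0.27). When level-adjusted, 8 (72.7%) lay below the spread, against 14.1% of all compared genes, and 0 above it. H2-Ab1 (-1.07, level-adjusted -0.61, spread 0.33) and Cx3cr1 (-0.63, level-adjusted -0.41, spread 0.26) were lowest. Levels of the 11 markers summed to 61.7 on the Ssu72fl/fl array and 65.7 on the Lysm-Cre array, and every one was above the floor on at least 1 array. Of 8 markers of alveolar type 2 cells, 6 were lower, with levels summing to 45.3 on the Ssu72fl/fl array and 46.5 on the Lysm-Cre array, and Sftpc among them read 8.35 on the Ssu72fl/fl array and 8.71 on the Lysm-Cre array. Of 9 compared endothelial and fibroblast markers, 8 were lower (sums 50.1 on the Ssu72fl/fl array and 51.6 on the Lysm-Cre array). Of 6 compared T and NK cell markers 3 were higher, and of 6 compared B cell markers also 3. Cd3d, Cd4, Cd79a and Blk were higher on the Ssu72fl/fl array by more than the spread when level-adjusted, at 0.24, 0.053, 0.19 and 0.23. Cd3d and Cd4 are bounds, and Cd4 passed its spread of 0.051 only narrowly. Cd22 was lower by more than the spread (-0.24, level-adjusted -0.21, spread 0.19). Ighm had the largest difference downward (-0.58, level-adjusted -0.14), within a spread of 0.33 when level-adjusted. The sums of T and NK cell markers were 44.5 on the Ssu72fl/fl array and 44.3 on the Lysm-Cre array, those of B cell markers 36.6 on the Ssu72fl/fl array and 37.0 on the Lysm-Cre array, and those of neutrophil markers 46.9 on the Ssu72fl/fl array and 47.1 on the Lysm-Cre array. Cd3e, Cd3g, Ncr1, Ms4a1, Ly6g, Cxcr2, Mpo and Camp were under the floor on both arrays, while Cd3d was above it on the Ssu72fl/fl array. In bulk RNA of sorted cells, fewer cells of a type and less RNA per cell cannot be told apart. The part of such cells in the results below was not tested.

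Translation factor genes were mostly lower on the Ssu72fl/fl array, by small amounts. Of the 62 genes, 50 could be compared, 42 above the floor on both arrays and 8 on 1 array. Of the 50, 40 were lower and 10 higher. A difference below 0 was seen in 51.9% of 13015 compared genes, against 80.0% of the translation factor genes. Their median difference was -0.078, and that of all compared genes was -0.0068. The range ran from -0.61 for Eef1b2 to 0.19 for Eif2b4. With the level curve removed the median was -0.030, against 0.011 over all compared genes. On that scale 33 of the 50 members were lower, against 6020 of the 13015 compared genes.

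**Figure D1:**
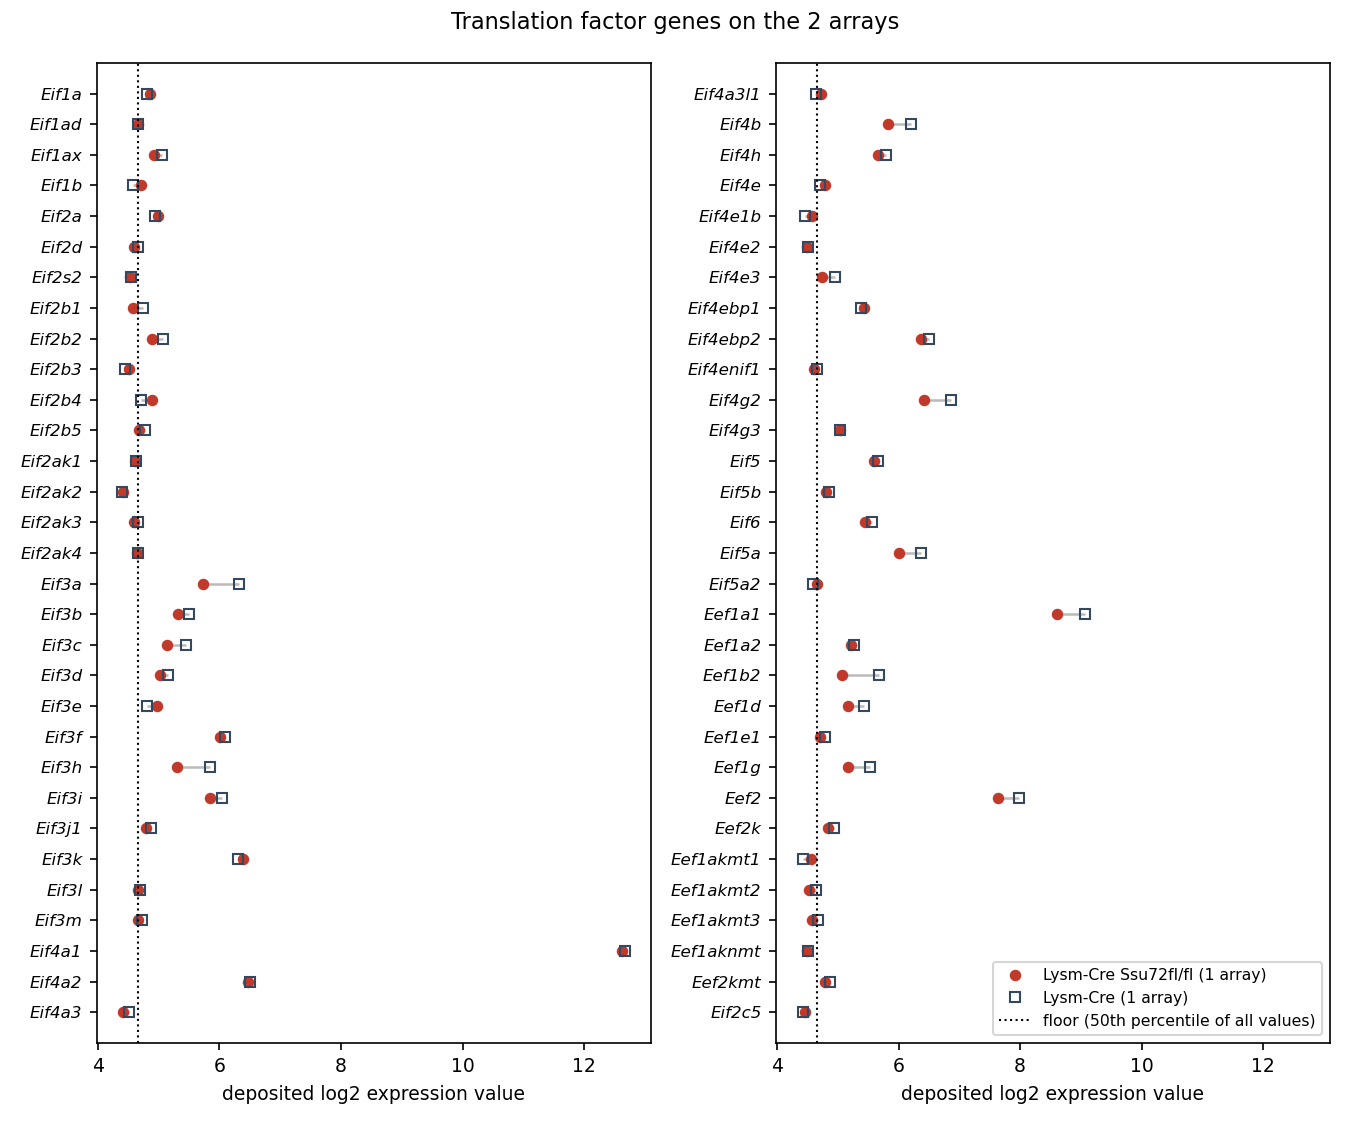
Deposited log2 expression values (horizontal axis) of the 62 translation factor genes (vertical axis) on the Lysm-Cre Ssu72fl/fl array (filled circles) and the Lysm-Cre array (open squares), 1 array each, with the floor of 4.65 as a dotted line. Most pairs lie close together near the floor, and the widest gaps, with the Ssu72fl/fl value on the left, are those of Eef1b2, Eif3a and Eif3h.

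Only 2 members were at least 1.5-fold lower, Eef1b2 and Eif3a, and 0 were at least 1.5-fold higher. Over all compared genes these shares were 1.37% lower and 0.315% higher, so 2 of 50 (4.0%) is a count too small to read against them. Neither gene was 1.5-fold lower after quantile normalization or with the level curve removed. At a threshold of 1.2-fold, 10 members (20%) were lower and 0 higher, against 9.0% lower and 3.73% higher over all compared genes. The 10 were Eef1b2, Eif3a, Eif3h, Eef1a1, Eif4g2, Eif4b, Eif5a, Eef2, Eef1g and Eif3c. No member was 2-fold different, and of the 13015 compared genes only 11 were at least 2-fold lower and 4 higher.

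Signal limits these counts, because a gene close to the floor cannot show a 1.5-fold loss. Of the 50 compared members, 27 had a mean signal within 0.5 of the floor. Among the other 23, 21 were lower, with a median of -0.20, whereas 63.4% of 3786 genes at such signal were lower, with a median of -0.085. The 2 members at least 1.5-fold lower are 8.7% of these 23, against 4.57% of the 3786 genes, on the deposited scale alone. All 10 members at least 1.2-fold lower are among the 23 (43.5%), against 24.7% of the 3786 genes. At levels from 5 to 6 this share was 28.6% of 14 members, against 13.5% of all compared genes. It was 50% of 8 members against 42.5% from 6 to 7, and 66.7% of 3 against 70.7% above 7. With the level curve removed, 15 of the 23 were lower, against 1760 of the 3786 genes. The median of the 23 was then -0.030, against 0.019 for the 3786 genes.

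The spread was taken over differences before level adjustment. Against it, 10 of the 50 members (20%) had a level-adjusted difference below 0 by more than the spread, and 4 (8.0%) above it. Over all compared genes 14.1% lay below and 17.7% above in this way. The 10 were Eef1b2, Eef1g and Eef1d of eEF1B, Eif3a, Eif3h and Eif3c of eIF3, Eif2b1, Eif2b2 and Eif2b5 of eIF2B, and the cap-binding gene Eif4e3. The 4 were Eif2b4, Eif3e, Eif3k and Eif1b. Eif2b1 and Eif1b are bounds, and their spread of 0.051 was taken with values under the floor set to it. Eif1b, at 0.053, passed it only narrowly, as Eif3k did its own spread (0.34 against 0.33). With a curve fitted on protein-coding genes alone, Eif1b was at 0.0056 and Eif3k at 0.26, each within its spread.

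**Figure D2:**
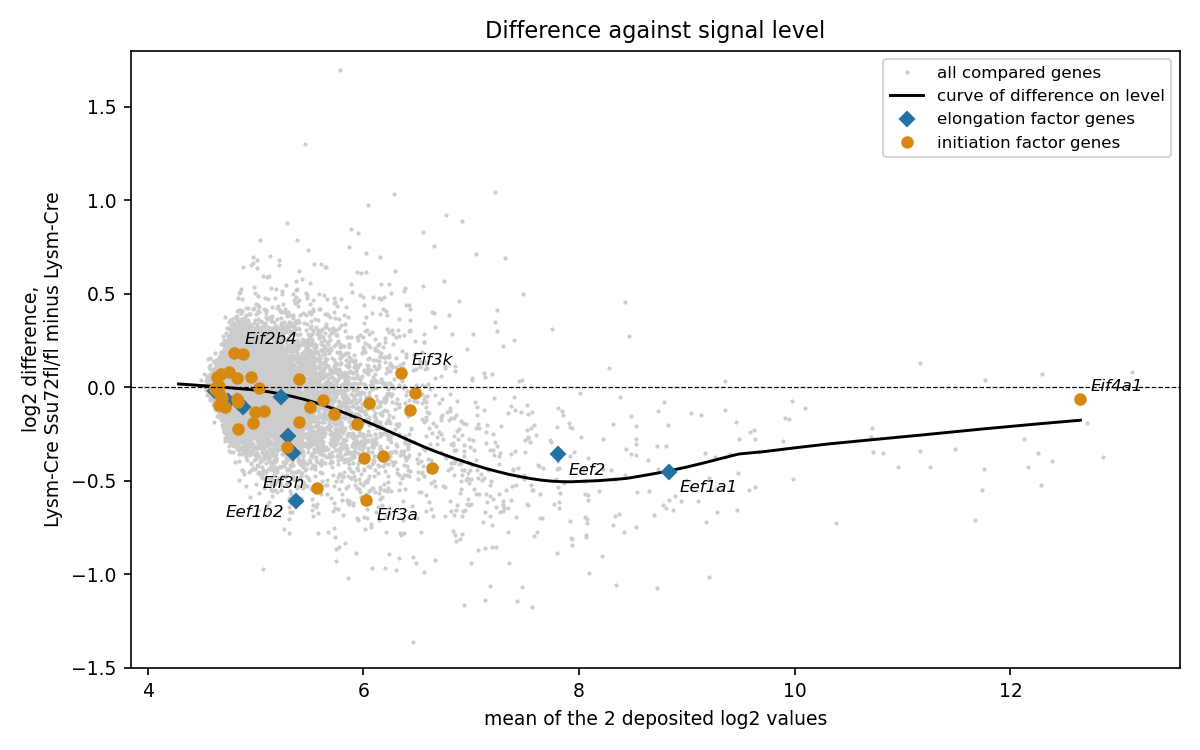
Log2 difference, Lysm-Cre Ssu72fl/fl minus Lysm-Cre (vertical axis), against the mean of both deposited log2 values (horizontal axis) for all 13015 compared genes (grey), genes with Eef symbols (blue diamonds) and genes with Eif symbols (orange circles); the black line is the curve of difference on level. Eef1a1 lies on the curve, Eef2 above it, and Eef1b2, Eif3h and Eif3a lie clearly below it.

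The elongation factor genes that could be compared were all lower on the deposited scale, although the sign of Eef2 turned with the scaling, and those of the exchange factor eEF1B were lower also for their level. Eef1b2 encodes a catalytic subunit of eEF1B, which exchanges GDP for GTP on eEF1A. It read 5.08 on the Ssu72fl/fl array and 5.68 on the Lysm-Cre array, a difference of -0.61, or 1.52-fold lower, with a spread of 0.20. Its level-adjusted difference was -0.55. Eef1g, the scaffold subunit, read 5.17 on the Ssu72fl/fl array and 5.53 on the Lysm-Cre array, a difference of -0.35 that became -0.30 when level-adjusted. Eef1d, a further exchange subunit, read 5.17 on the Ssu72fl/fl array and 5.43 on the Lysm-Cre array (-0.26, level-adjusted -0.22, spread 0.19). All 3 eEF1B subunit genes thus differed by more than the spread in the same direction. Eef1e1 encodes a partner that sits in the aminoacyl-tRNA synthetase complex, and at 4.71 on the Ssu72fl/fl array and 4.79 on the Lysm-Cre array it differed by less than the spread (-0.073, spread 0.11).

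For eEF1A and eEF2 themselves, the drift with signal level was about as large as the difference. Eef1a1, the eEF1A gene used in most tissues, read 8.61 on the Ssu72fl/fl array and 9.06 on the Lysm-Cre array, a difference of -0.45. Genes at that level shared the drift, and the level-adjusted difference was -0.0046. Eef2 read 7.63 on the Ssu72fl/fl array and 7.98 on the Lysm-Cre array, a difference of -0.36 that turned to 0.15 when level-adjusted and to 0.076 after quantile normalization, within a spread of 0.33. Eef1a2, the form known from neurons and muscle, read 5.21 on the Ssu72fl/fl array and 5.26 on the Lysm-Cre array (-0.050). Eef2k, the calcium-dependent kinase that inhibits eEF2, was at 4.83 and 4.94 on the Ssu72fl/fl and Lysm-Cre arrays (-0.10, spread 0.13).

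To show the sequences at these genes, promoter windows from RefSeq (GRCm38.p6) are given for both members at least 1.5-fold lower and for the highest member Eif2b4. Windows are also given for Eif3k, narrowly above the spread when level-adjusted, and for the elongation genes Eef1a1 and Eef2. Each runs from 60 bases before the annotated start to 20 bases after it, on the gene's strand. Capitals mark a match to CCGGAAG, a sequence that ETS-family factors can bind, or to TATAAA, the TATA box. Each was searched on both strands and picked after the windows had been read. Shorter parts of CCGGAAG, such as GGAA, were not marked and also occur in unmarked windows.
Eef1b2, chr1:63176771-63176850, plus strand: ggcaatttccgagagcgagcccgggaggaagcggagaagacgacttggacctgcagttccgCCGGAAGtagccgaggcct
Eif3a, chr19:60790674-60790753, minus strand: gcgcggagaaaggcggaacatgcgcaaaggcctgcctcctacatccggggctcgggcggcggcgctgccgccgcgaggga
Eef1a1, chr9:78481705-78481784, minus strand: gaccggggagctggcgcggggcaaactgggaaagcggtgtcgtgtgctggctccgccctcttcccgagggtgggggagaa
Eef2, chr10:81176571-81176650, plus strand: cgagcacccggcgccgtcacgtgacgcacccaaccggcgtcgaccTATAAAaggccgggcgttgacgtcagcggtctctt
Eif2b4, chr5:31193120-31193199, minus strand: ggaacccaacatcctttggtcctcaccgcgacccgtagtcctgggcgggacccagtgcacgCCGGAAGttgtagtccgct
Eif3k, chr7:28981869-28981948, minus strand: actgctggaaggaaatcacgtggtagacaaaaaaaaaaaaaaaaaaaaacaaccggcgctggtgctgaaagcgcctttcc

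Eef1b2, the lowest member, and Eif2b4, the highest, both hold the ETS-type letters just after the annotated start. Eef2 holds the TATA letters. Of 32851 RefSeq start windows of this length, 4.76% hold the ETS-type letters and 4.49% the TATA letters. Such a match is a description of the letters. Only 48 of the 62 members matched a promoter entry (77.4%), so no count of motifs over the whole group is given.

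Among the 12 compared eIF3 genes, 10 were lower (83.3%, against 51.9% of all compared genes) and 2 higher. Their median was -0.11 (level-adjusted -0.065). When level-adjusted, 3 (25%) lay below the spread and 2 (16.7%) above it. Over all compared genes 14.1% lay below and 17.7% above. Eif3a, the large core subunit that holds the complex together, read 5.72 on the Ssu72fl/fl array and 6.32 on the Lysm-Cre array. The difference of -0.60, or 1.52-fold lower, became -0.42 when level-adjusted, with a spread of 0.26. Eif3h, a subunit of the MPN-domain type, read 5.30 on the Ssu72fl/fl array and 5.84 on the Lysm-Cre array (-0.54, level-adjusted -0.45, spread 0.23). Eif3c, the other large core subunit, read 5.14 on the Ssu72fl/fl array and 5.46 on the Lysm-Cre array (-0.32, level-adjusted -0.28, spread 0.19). These 3 subunits stood below the spread, whereas the other core genes Eif3b (-0.18) and Eif3i (-0.20) lay within it when level-adjusted, at -0.13 and -0.034.

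In the opposite direction, Eif3e, a subunit of the octamer core, read 4.98 on the Ssu72fl/fl array and 4.80 on the Lysm-Cre array (0.18, level-adjusted 0.18, spread 0.13). Eif3k, a small peripheral subunit, read 6.39 on the Ssu72fl/fl array and 6.31 on the Lysm-Cre array. Its deposited difference was only 0.076, but genes at that signal were mostly lower, and its level-adjusted difference of 0.34 was just above the spread of 0.33. It was 0.26 with a curve fitted on protein-coding genes alone and 0.32 after quantile normalization, both within that spread. Eif3k and Eif3l are partners in the complex, yet Eif3l read 4.66 on the Ssu72fl/fl array and 4.70 on the Lysm-Cre array, at the floor. Eif3f, a subunit of the same domain type as Eif3h, was at 6.01 on the Ssu72fl/fl array and 6.09 on the Lysm-Cre array (-0.086), and this sign turned with level adjustment (0.10) and with quantile normalization. Eif3d, which contacts the mRNA cap on some transcripts, was at 5.02 and 5.15 on the Ssu72fl/fl and Lysm-Cre arrays (-0.13). Eif3j1 (-0.081) and Eif3m (-0.055) were within the spread of their level.

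**Figure D3:**
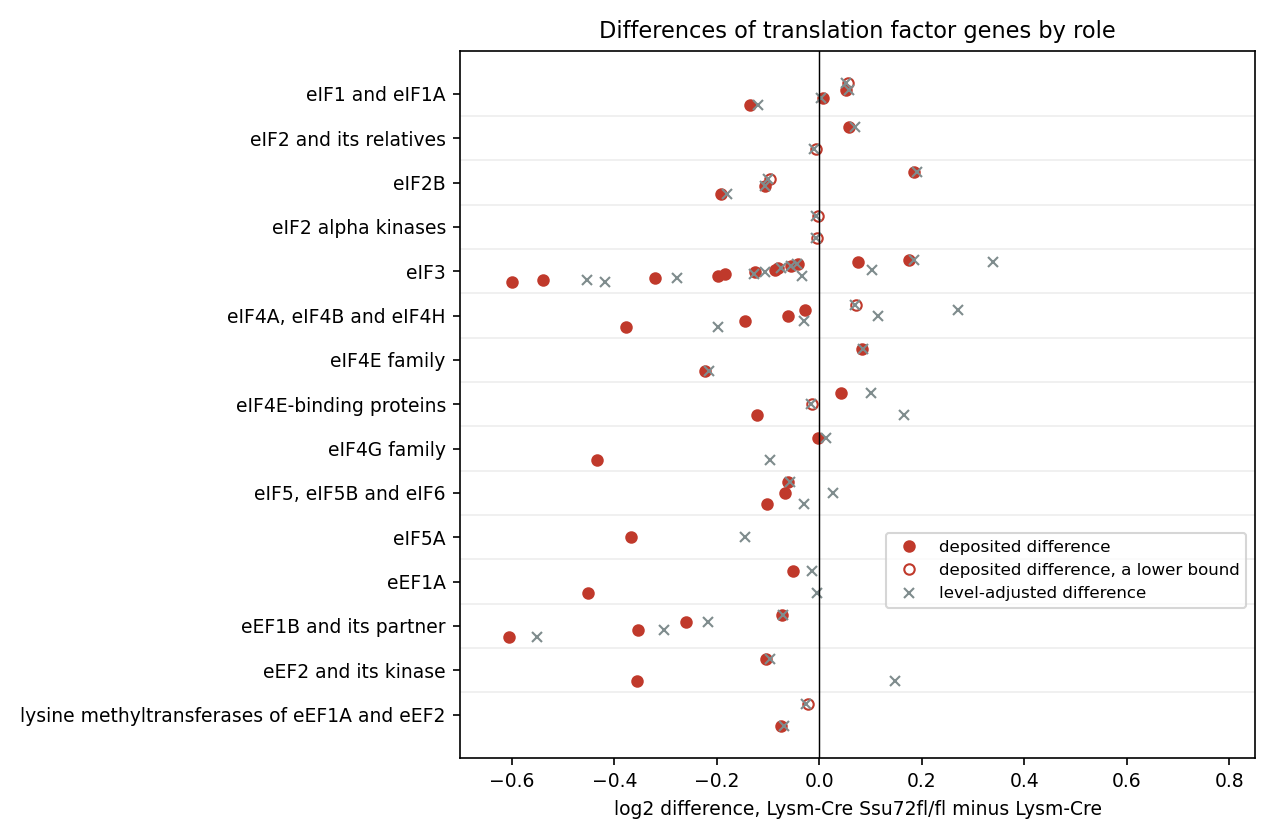
Log2 differences, Lysm-Cre Ssu72fl/fl minus Lysm-Cre (horizontal axis), of the 50 compared genes grouped by role (vertical axis): filled circles are deposited differences, open circles are those that are lower bounds, and crosses are level-adjusted differences. The eEF1B genes keep their place when level-adjusted, whereas Eef1a1 and Eef2 move to or past 0, and the eIF3 genes spread on both sides of 0.

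Genes of cap binding and leader unwinding were mixed. Eif4g2 encodes a relative of the eIF4G scaffold that does not bind eIF4E and serves cap-independent initiation. It read 6.42 on the Ssu72fl/fl array and 6.86 on the Lysm-Cre array, a difference of -0.43 that became -0.096 when level-adjusted. Eif4b, which stimulates the helicase eIF4A, read 5.82 on the Ssu72fl/fl array and 6.20 on the Lysm-Cre array (-0.38, level-adjusted -0.20, spread 0.26). Its relative Eif4h was at 5.66 and 5.80 on the Ssu72fl/fl and Lysm-Cre arrays (-0.14, level-adjusted -0.030). Eif4g3, an eIF4G paralogue, read 5.03 on both arrays, with a difference of -0.0031 whose sign turned with level adjustment and with quantile normalization.

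The cap-binding gene Eif4e read 4.80 on the Ssu72fl/fl array and 4.71 on the Lysm-Cre array (0.083, spread 0.11). Its paralogue Eif4e3 went the other way, at 4.73 on the Ssu72fl/fl array and 4.95 on the Lysm-Cre array (-0.22, level-adjusted -0.22, spread 0.13). Both lie near the floor. Eif4e1b, known from oocytes, and Eif4e2 were under the floor on both arrays. The repressors that hold eIF4E when mTORC1 is inactive showed no difference beyond the spread. Eif4ebp1 read 5.43 on the Ssu72fl/fl array and 5.38 on the Lysm-Cre array (0.043, spread 0.20). Eif4ebp2 read 6.38 on the Ssu72fl/fl array and 6.50 on the Lysm-Cre array, a difference of -0.12 that turned to 0.16 when level-adjusted and also changed sign after quantile normalization. Eif4enif1, the eIF4E transporter, was below the floor on the Ssu72fl/fl array and at 4.67 on the Lysm-Cre array.

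For the helicase genes the choice of feature decided the value. Eif4a1 had 2 single-symbol features. The one with the highest mean read 12.62 on the Ssu72fl/fl array and 12.68 on the Lysm-Cre array (-0.062), and the other read 4.89 on the Ssu72fl/fl array and 5.16 on the Lysm-Cre array (-0.27). Eif4a2 had 3: the highest read 6.47 on the Ssu72fl/fl array and 6.50 on the Lysm-Cre array (-0.028), the next 5.12 on the Ssu72fl/fl array and 5.52 on the Lysm-Cre array (-0.40), and the lowest was under the floor. Introns of both genes are known to host small nucleolar RNAs, and 2 further features are annotated to Eif4a2 together with Snord2 or Snora81. The Snord2 feature read 6.33 on the Ssu72fl/fl array and 7.10 on the Lysm-Cre array (-0.77), the Snora81 feature 9.34 on the Ssu72fl/fl array and 9.41 on the Lysm-Cre array (-0.072). Which parts of the transcripts the single-symbol features read is not known from the annotation used. On the deposited scale every one of these features above the floor was lower on the Ssu72fl/fl array, but when level-adjusted the features with the highest mean were at 0.11 (Eif4a1) and 0.27 (Eif4a2), and the next ones at -0.25 and -0.35. The single-symbol feature of Eif4a3, the helicase of the exon junction complex, was under the floor on both arrays, and that of its close relative Eif4a3l1 was at least 0.071 higher. A feature shared by Eif4a3, Eif4a3l1 and Gm5576 was above the floor on both, at 5.19 on the Ssu72fl/fl array and 5.09 on the Lysm-Cre array (0.10).

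**Figure D4:**
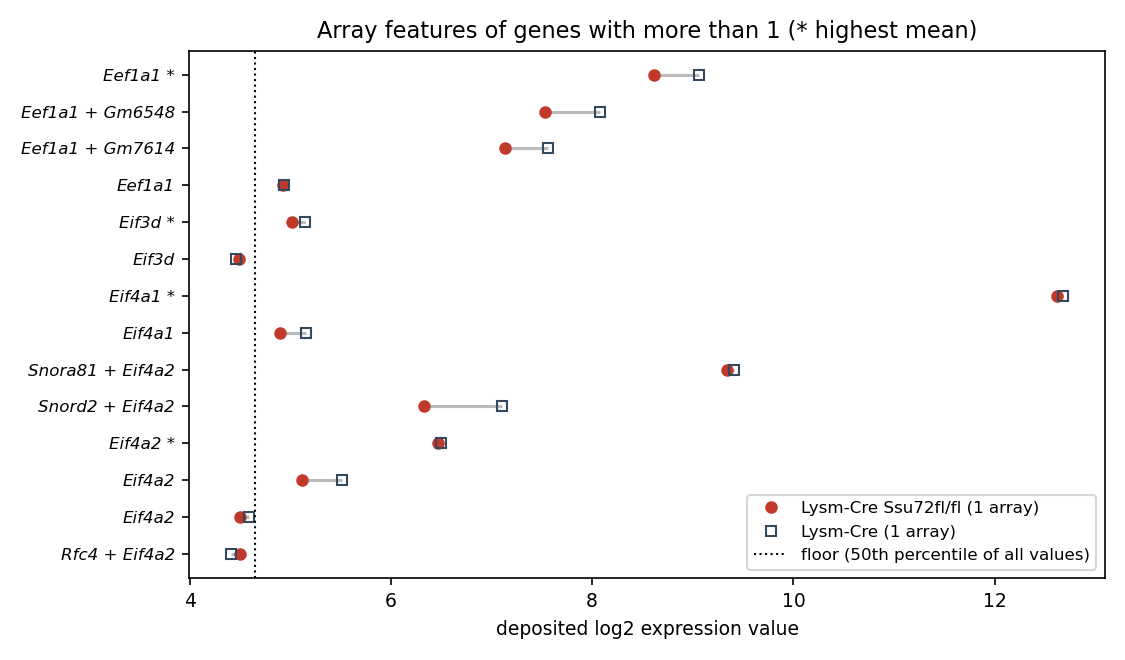
Deposited log2 expression values (horizontal axis) of all features annotated to Eif4a1, Eif4a2, Eef1a1 or Eif3d (vertical axis, with every gene symbol the feature carries) on the Lysm-Cre Ssu72fl/fl array (circles) and the Lysm-Cre array (squares); an asterisk marks the feature used. The brightest Eif4a1 and Eif4a2 single-symbol features show almost no gap, while the next ones read lower on the Ssu72fl/fl array.

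Eef1a1 also had several features. Its 2 single-symbol features read 8.61 and 4.93 on the Ssu72fl/fl array and 9.06 and 4.93 on the Lysm-Cre array. A pair more carry its symbol beside that of a predicted gene: the one with Gm6548 read 7.53 on the Ssu72fl/fl array and 8.08 on the Lysm-Cre array (-0.55), and the one with Gm7614 read 7.13 on the Ssu72fl/fl array and 7.56 on the Lysm-Cre array (-0.42). Differences of all 4 features lay between -0.55 and -0.0086, and when level-adjusted between -0.042 and 0.041. Eef1a1 has many near-identical processed copies in the genome, so these features may read overlapping sequence and are no independent measurements. For Eif3d the features disagreed in sign, but the second read under the floor on both arrays (4.49 on the Ssu72fl/fl array and 4.46 on the Lysm-Cre array).

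The eIF2B genes, whose products form the decameric exchange factor of eIF2, lay near the floor and differed in direction. Eif2b4, the delta subunit, read 4.90 on the Ssu72fl/fl array and 4.71 on the Lysm-Cre array (0.19, spread 0.12). Eif2b2, the beta subunit, read 4.88 on the Ssu72fl/fl array and 5.08 on the Lysm-Cre array (-0.19, spread 0.15). Eif2b5, the catalytic epsilon subunit, read 4.67 on the Ssu72fl/fl array and 4.78 on the Lysm-Cre array (-0.11, spread 0.099). Eif2b1, the alpha subunit, was under the floor on the Ssu72fl/fl array and at 4.75 on the Lysm-Cre array, so that its difference of -0.097 is a bound. Eif2b3, the gamma subunit, was under the floor on both.

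The 4 eIF2 alpha kinases, which start the integrated stress response, gave little signal. The single-symbol features of Eif2ak1, the haem-regulated kinase, and Eif2ak2, the kinase PKR that senses double-stranded RNA, were under the floor on both arrays. A feature that Eif2ak1 shares with Aimp2 was just above it, at 4.70 on the Ssu72fl/fl array and 4.76 on the Lysm-Cre array (-0.062). Eif2ak3, the kinase PERK of the endoplasmic reticulum, and Eif2ak4, the amino acid sensor GCN2, reached 4.65 and 4.66 on the Lysm-Cre array and were under the floor on the Ssu72fl/fl array. Eif2s2, the beta subunit of eIF2, was under the floor on both arrays. Eif2a, an alternative initiator tRNA carrier, read 4.99 on the Ssu72fl/fl array and 4.93 on the Lysm-Cre array (0.058), and Eif2d, a factor of reinitiation and ribosome recycling, was at the floor.

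The start-codon scanning factors were close to the floor as well. Eif1a and Eif1ax encode near-identical forms of eIF1A and differed in sign, at 0.052 for Eif1a and -0.13 for Eif1ax, each within its spread (0.12 and 0.15); probes for such similar genes may read both. Eif1b was at least 0.056 higher, at 4.71 on the Ssu72fl/fl array and under the floor on the Lysm-Cre array. Eif1ad read 4.66 on both arrays, with a difference of 0.0065 whose sign turned after quantile normalization.

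Of the later factors, Eif5a had the largest difference. Its product, the hypusine-modified eIF5A, keeps ribosomes moving over stretches that stall them. Eif5a read 6.00 on the Ssu72fl/fl array and 6.37 on the Lysm-Cre array, a difference of -0.37 that became -0.15 when level-adjusted, within a spread of 0.33. Its paralogue Eif5a2 was under the floor on both arrays. Eif5, which triggers GTP hydrolysis by eIF2, read 5.59 on the Ssu72fl/fl array and 5.66 on the Lysm-Cre array (-0.067), and this sign turned with level adjustment (0.027) and with quantile normalization. Eif5b, which joins the subunits, read 4.80 on the Ssu72fl/fl array and 4.86 on the Lysm-Cre array (-0.062). Eif6, which keeps free large subunits apart from small ones, read 5.45 on the Ssu72fl/fl array and 5.56 on the Lysm-Cre array (-0.10, spread 0.23).

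The lysine methyltransferase genes that modify eEF1A and eEF2 had low signal. Eef2kmt read 4.79 on the Ssu72fl/fl array and 4.87 on the Lysm-Cre array (-0.074, spread 0.12). Eef1akmt3 was under the floor on the Ssu72fl/fl array and at 4.67 on the Lysm-Cre array. Eef1akmt1, Eef1akmt2, Eef1aknmt and the lncRNA Eif2c5 were under the floor on both arrays. In all, 12 members were under the floor on both arrays in the feature used and have no difference.

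Genes around these factors also differed by small amounts. The share of lower genes was 71.4% for other cytosolic factors, 65.2% for mTORC1 and MAP kinase signalling, 63.2% for stress response targets and 64.7% for aminoacyl-tRNA synthetases. Over all compared genes it was 51.9%, and over those at least 0.5 above the floor 63.4%. Among 28 compared cytosolic translation factors with other symbols, 20 were lower and 8 higher, and the median was -0.082 (level-adjusted -0.027). The lowest were Bzw2, an eIF5 mimic, at 5.01 on the Ssu72fl/fl array and 5.43 on the Lysm-Cre array (-0.43), and Impact, an inhibitor of GCN2 activation (-0.40). The highest was Gcn1, which activates GCN2 at stalled ribosomes, at 6.83 on the Ssu72fl/fl array and 6.29 on the Lysm-Cre array (0.54, level-adjusted 0.86, spread 0.33). Next was Larp1, a repressor of mRNAs with a terminal pyrimidine tract, at 6.39 on the Ssu72fl/fl array and 6.09 on the Lysm-Cre array (0.30, level-adjusted 0.53).

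Among 23 genes of mTORC1 and MAP kinase signalling to eIF4 and eEF2, 15 were lower and 8 higher, and the median was -0.090 (level-adjusted -0.058). Lamtor3, part of the lysosomal Ragulator, was lowest (-0.66, level-adjusted -0.26), followed by the ribosomal protein gene Rps6 (-0.55, level-adjusted -0.16). Both lay within a spread of 0.33 when level-adjusted. Ddit4 (0.22), an inhibitor of mTORC1, and Rps6ka3 (0.21), a kinase of the RSK family, were highest. Of 19 compared targets of the integrated stress response, 12 were lower and 7 higher, and the median was -0.052 (level-adjusted -0.0056). Atf3 (-0.71, level-adjusted -0.21) and Ddit3 (-0.38, level-adjusted -0.23) were lowest, and Nupr1 (0.39, level-adjusted 0.49) and the amino acid transporter gene Slc7a5 (0.22) highest. When level-adjusted, Atf3 and Ddit3 lay within their spreads (0.33 and 0.26). Of the 19 targets, 4 (21.1%) then lay above the spread and 1 (5.3%) below it. Over all compared genes 17.7% lay above and 14.1% below. Atf4, whose mRNA is translated when eIF2 alpha is phosphorylated, was named after its values were seen. It read 5.19 on the Ssu72fl/fl array and 5.35 on the Lysm-Cre array (-0.17, spread 0.19).

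Of 17 compared cytosolic aminoacyl-tRNA synthetase genes, 11 were lower and 6 higher; the median was -0.029 (level-adjusted -0.014). Nars, at 5.40 on the Ssu72fl/fl array and 5.92 on the Lysm-Cre array (-0.52), and Rars (-0.32) were lowest, and Cars (0.073) and Sars (0.042) highest. Only 3 of 11 mitochondrial translation factor genes were above the floor on at least 1 array, from Mrrf (-0.032, a bound) to Taco1 (at least 0.27), with the elongation factor gene Tufm at 0.068. Their median of 0.068 turned to -0.015 with a lower floor, at the 25th percentile, and to -0.0071 without one.

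**Figure D5:**
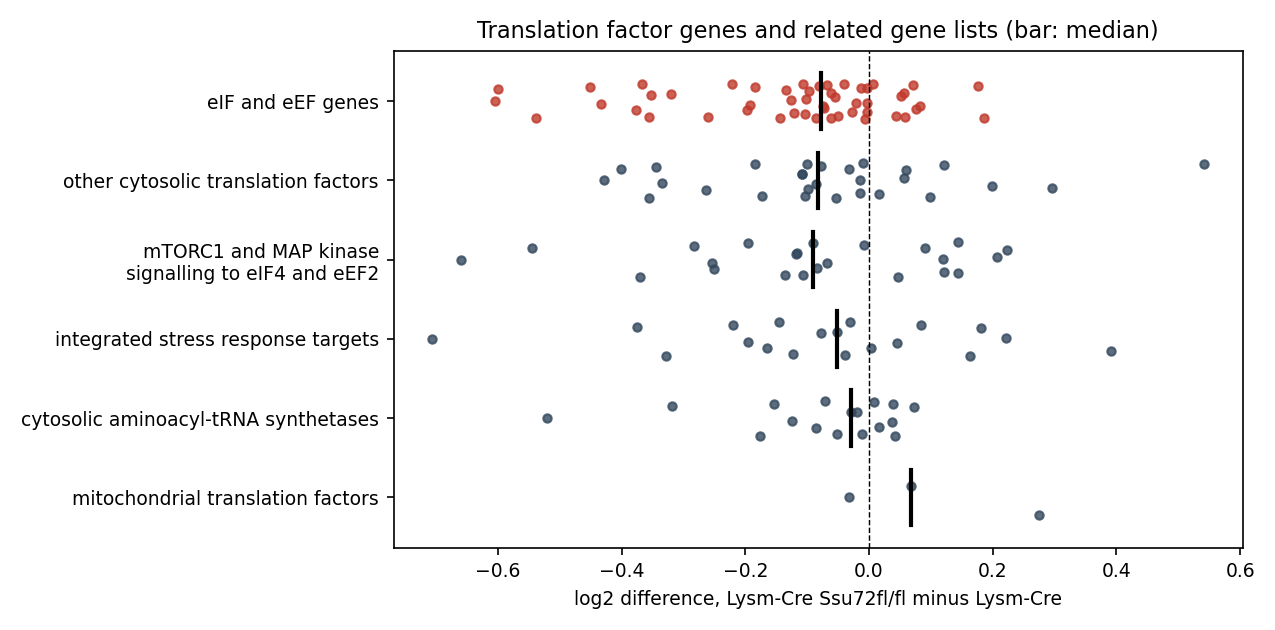
Log2 differences, Lysm-Cre Ssu72fl/fl minus Lysm-Cre (horizontal axis), of the compared genes of each list (vertical axis; vertical scatter within a list has no meaning), with a black bar at each median: -0.078 for the 50 eIF and eEF genes, -0.082, -0.090, -0.052 and -0.029 for the next 4 lists and 0.068 for the 3 mitochondrial factors, a direction that turned with lower floors. All lists hold genes on both sides of 0.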

How the data were processed

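Alveolar macrophage RNA was hybridised to 2 arrays, from 6 ug of total RNA each, per the labels' protocols. The authors deposited 1 log2 value per array feature; that the scale is log2 was inferred from the range of 4.23 to 13.5. MAS5 appears in the submitters' processing notes with no role stated. Background correction, normalization and offset: not given in the sources used here. Of 33793 features, 23521 carried 1 symbol in the platform annotation, and 23328 of these were renamed through the Entrez identifier to RefSeq (GRCm38.p6). The floor was the 50th percentile (4.65), which left 13015 of 22180 genes. The spread came from 20 bins of mean signal, and the highest bin runs from 6.18 to 13.1, so its spread of 0.33 is coarse. It was taken over differences before level adjustment and so also holds the drift within a bin. The level curve was a lowess (span 0.3) over medians of level bins 0.1 wide with at least 10 features (statsmodels 0.14.6, pandas 2.3.3, numpy 2.4.6); the procedure was tested on simulated data. Named genes were all members, up to 2 at each end of each list, and the markers; Atf4 was added outside this rule. Promoter motifs and 2 alternatives were chosen after seeing the data. Members and lists were chosen with earlier results of these data known. Alternatives are given in the closing section. No sample pairing or test between genotypes was possible with 1 array each.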

Additional observations from a re-analysis of the deposited data

How the results depend on the processing

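No paired analysis was possible because each genotype has 1 array. The median difference of the translation factor genes stayed below 0 under every alternative run. Scaling alternatives were median centring, quantile normalization, and removal of the level curve fitted on all features or on protein-coding genes. The others were floors at the 25th and 75th percentiles, no floor, and the mean of a gene's features. The median of all compared genes moved as well. It ran from -0.030 with a floor at the 75th percentile (members -0.13) to 0.011 with the level curve removed (members -0.030). Among genes with a mean signal at least 0.5 above the floor, chosen after seeing the data as was the second feature of Eif4a1 and Eif4a2, the median was -0.20 and 21 of 23 genes were lower. With the level curve removed, 33 of 50 members were lower, against 6020 of 13015 compared genes. The count at least 1.5-fold lower was 0 after quantile normalization, after removal of either curve and at a 2-fold threshold, and 10 at 1.2-fold. Over the 13015 compared genes it was 39 with the curve of all features removed, 11 at 2-fold and 1172 at 1.2-fold. A count of 0 among 50 members therefore says little about them. Eef2 changed sign, to 0.076 after quantile normalization, 0.15 with the level curve removed and 0.11 with the curve of protein-coding genes. Of the 50 compared genes, 8 changed sign in at least 1 alternative and 42 in none. At the floor set to the 75th percentile, 8 of 9 aminoacyl-tRNA synthetase genes were lower and 0 of 1 mitochondrial factor gene. The median of the mitochondrial factors was -0.015 at a 25th-percentile floor and -0.0071 without a floor. Why these values moved was not tested, except that other floors compare other numbers of genes.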
